A study of Homo sapiens with 6 samples.

Results

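The ID genes and the feedback genes of bone morphogenetic protein (BMP) signalling were examined in the ovarian cancer line A2780, of human origin, in a comparison of the groups labelled GPT2si and GPT2sinc. The set holds 8 genes chosen by symbol: ID1, ID2, ID3, ID4, SMAD6, SMAD7, SMAD9 and BAMBI. They are 8 of the 60564 gene rows of the count table, and 7 of them, all but BAMBI, passed the low-count filter, as did 17006 rows in all. The set was selected on the same comparison that is described here, in which ID1, ID2 and ID3 were already known to differ. The values of the 8 genes between the groups are therefore a description, and their p-values are not independent evidence.

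The study's title concerns a lack of GPT2, the mitochondrial alanine aminotransferase. It has 3 GPT2si and 3 GPT2sinc libraries of poly(A)-selected RNA. The labels give these names under genotype without explaining the endings si and sinc. No other allele, agent or treatment time is given for either group, and the labels do not say whether replicates are separate cultures. The p-values are thus set by the spread among the libraries, part or all of which could be technical. Both groups are the same cell line, and no second line was measured.

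Total counts per library were 41931162 to 50882329 in GPT2si and 43351984 to 45508530 in GPT2sinc. GPT2 itself had 93.8, 94.3 and 96.9 CPM (counts scaled to a common library size) in GPT2si, against 236, 230 and 219 CPM in GPT2sinc, with a log2 fold change of −1.26 (SE 0.08; edgeR quasi-likelihood test, adjusted p = 0.000393). The library GPT2si 2 stood apart from the other GPT2si libraries, with a chi-square per degree of freedom over genes of 37.9 and 46.3 against them, where the other two differed by 7.71. To a lesser degree GPT2sinc 1 stood apart in its group, at 17.6 and 18.9, where GPT2sinc 2 and 3 differed by 9.12. Between groups, GPT2si 1 differed from GPT2sinc 1 to 3 by 41.5, 27.3 and 23.5, and GPT2si 3 by 31.0, 26.1 and 24.6. GPT2si 2 differed from them by 89.4, 65.3 and 51.6. GPT2si 3 was thus nearer to every GPT2sinc library than to GPT2si 2, and GPT2si 1 nearer to all but GPT2sinc 1. Of 10 ovarian carcinoma epithelium markers, WT1, KRT7 and CLDN3 had 0 counts in every library, and the summed level of the list was 66.4 to 82.1 CPM in GPT2si, against 59.8 to 61.8 CPM in GPT2sinc. KRT8 and KRT18 carried most of that sum, with means of 38.4 and 31.2 CPM in GPT2si and 31.7 and 24.7 CPM in GPT2sinc. PAX8 averaged 0.195 CPM in GPT2si and 0.176 CPM in GPT2sinc. All 7 fibroblast markers passed the low-count filter, and their summed level was 2999 to 3218 CPM in GPT2si and 3031 to 3177 CPM in GPT2sinc. COL3A1 carried most of that sum, with means of 2587 CPM in GPT2si and 2561 CPM in GPT2sinc. DCN averaged 3.96 CPM in GPT2si and 3.90 CPM in GPT2sinc, and LUM 0.199 CPM in GPT2si and 0.264 CPM in GPT2sinc. Endothelial cells are known for high ID gene expression. Their 6 markers summed to 0.139 to 0.334 CPM in GPT2si and 0.0861 to 0.391 CPM in GPT2sinc, with CDH5 at 0 counts throughout. The 7 leukocyte markers summed to 5.31 to 9.44 CPM in GPT2si and 6.89 to 7.04 CPM in GPT2sinc, with CD3E at 0 counts. The 4 mesothelial markers summed to 0.988 to 1.61 CPM in GPT2si and 1.18 to 1.49 CPM in GPT2sinc. The part of these markers in the results below was not tested.

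BMP ligands bind a complex of type I and type II receptor kinases, which phosphorylate the receptor-activated SMADs 1, 5 and 9. These join SMAD4 and bind enhancers of target genes, among which the ID genes are the best known. ID proteins have a helix-loop-helix but no DNA-binding region, and by pairing with E proteins they keep these and their tissue-specific partners off DNA. SMAD6, SMAD7 and BAMBI are induced by BMP or TGF-beta signals and act back on the receptors: SMAD6 and SMAD7 are inhibitory SMADs, and BAMBI is a membrane protein that resembles a receptor without a kinase. SMAD9, also called SMAD8, is a receptor-activated SMAD with weak activity that is itself a BMP target.

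Promoter sequence was read from RefSeq for all 8 genes, as the 250 bases before each annotated start on GRCh38.p14. The windows of ID1, ID4 and SMAD6 are shown because ID1 had the smallest p of the set, and ID4 and SMAD6 had smaller differences in the same direction. They run 5′ to 3′ on the plus strand, and capitals mark the motifs that were found.
ID1, chr20:31605039-31605288: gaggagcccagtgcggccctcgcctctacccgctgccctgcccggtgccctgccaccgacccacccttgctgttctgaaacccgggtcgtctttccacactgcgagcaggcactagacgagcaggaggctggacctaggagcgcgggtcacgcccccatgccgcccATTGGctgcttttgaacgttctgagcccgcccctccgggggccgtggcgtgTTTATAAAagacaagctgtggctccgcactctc
ID4, chr6:19837120-19837369: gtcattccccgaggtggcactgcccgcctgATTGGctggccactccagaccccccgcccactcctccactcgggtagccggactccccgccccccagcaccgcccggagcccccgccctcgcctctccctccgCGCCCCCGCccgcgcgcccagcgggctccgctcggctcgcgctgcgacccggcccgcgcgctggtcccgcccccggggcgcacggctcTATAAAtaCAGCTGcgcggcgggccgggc
SMAD6, chr15:66701986-66702235: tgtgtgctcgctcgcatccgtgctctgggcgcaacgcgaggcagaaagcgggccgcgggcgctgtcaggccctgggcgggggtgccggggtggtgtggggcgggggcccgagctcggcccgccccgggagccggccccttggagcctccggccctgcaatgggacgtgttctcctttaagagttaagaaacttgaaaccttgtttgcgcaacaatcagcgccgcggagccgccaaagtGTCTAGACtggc

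Motifs were searched on both strands in 35116 RefSeq windows of the same length. The palindromic SMAD element GTCTAGAC occurs in the SMAD6 window, where its first base lies 12 bases before the start, and in 0.182% of all windows. The GC-rich SMAD element GGCGCC was found at BAMBI alone among the 8 genes and in 16.4% of all windows, and GGCGCC followed after 5 bases by GTCT was found at none of the 8 and in 0.0769% of all. The E-box CAGCTG, a site type for E proteins, occurs in the ID2 and ID4 windows and in 14% of all windows. CAGGTG was found at SMAD7 (17.5% of all) and CACGTG at SMAD9 (6.34% of all). The EGR1 motif GCGGGGGCG was found at ID4 and SMAD9 (4.72% of all), and neither GCGTGGGCG (0.72% of all) nor the cyclic AMP element TGACGTCA (1.65% of all) was found at any of the 8. The TATAAA and CCAAT boxes were searched after the sequences had been seen. TATAAA lies 31 bases before the start of ID1 and 29 bases before that of ID4, was also found at SMAD7, and occurs in 10.7% of all windows. In ID1 the match on one strand overlaps a match on the other. CCAAT was found at ID1, ID2, ID4 and BAMBI and in 32% of all windows. The ID3 window held none of these motifs. The windows of the 8 genes include only the bases next to the start and no distal enhancer.

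ID1, ID2 and ID3 were higher in GPT2si than in GPT2sinc, by 2.22-fold, 1.84-fold and 2.23-fold. ID4 and SMAD6 had higher values in every GPT2si library but did not pass the test, SMAD7 and SMAD9 had overlapping groups, and BAMBI was at or under the floor of 3 counts. In bulk RNA such a difference may lie in the number of cells that hold a transcript or in its amount per cell, which cannot be told apart here. With edgeR's quasi-likelihood test and Benjamini-Hochberg adjustment over all tested genes, 3 of the 7 tested members were past the threshold of 0.05 upward and 0 downward. Over all 17006 tested genes, 0.576% were past it upward and 0.841% downward. The adjusted p-values of the 3 genes ran from 0.0111 to 0.0119. The library values of the groups did not overlap for 5 of the 7 members and for 28.2% of all tested genes. Because the comparison chose the set, nothing is read from these counts.

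**Figure D1:**
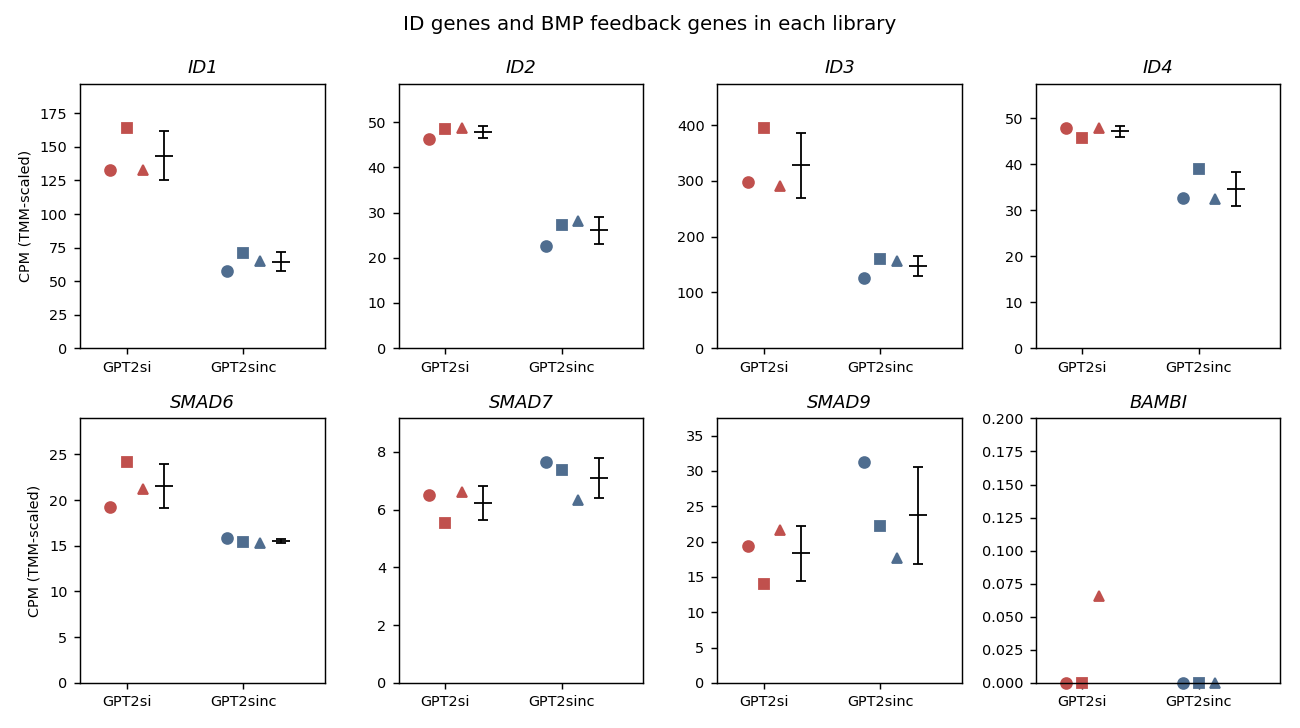
Level of each of the 8 genes in each library, in CPM scaled by TMM factors on an axis that starts at 0, with GPT2si left of GPT2sinc; points are libraries, and bars are the mean ± SD (n = 3 per group; not drawn for BAMBI). The GPT2si points of ID1, ID2, ID3, ID4 and SMAD6 all lie above the GPT2sinc points, and those of SMAD7 and SMAD9 overlap.

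ID1 (ENSG00000125968; chromosome 20, 31605283 to 31606515, plus strand; GRCh38) has exons that merge over all GENCODE 29 transcripts into 1 block of 1233 bases. The longest transcript has the same length. Because the exons were merged, whether other transcripts are spliced is not shown for ID1. Its level was 133, 164 and 133 CPM in GPT2si 1 to 3, against 57.4, 71.1 and 65.3 CPM in GPT2sinc 1 to 3. The lowest GPT2si library was above the highest GPT2sinc library, and GPT2si 2 was the highest of the 6. The means were 143 ± 18.2 CPM in GPT2si and 64.6 ± 6.86 CPM in GPT2sinc (SD, n = 3 each), with a log2 fold change of 1.15 (SE 0.12). Behind these values stand 6037 to 6689 counts per GPT2si library and 2633 to 3301 per GPT2sinc library.

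ID3 (ENSG00000117318; chromosome 1, 23557918 to 23559794, minus strand) was the most abundant of the set. It had 298, 395 and 291 CPM in GPT2si 1 to 3, against 126, 159.6 and 156 CPM in GPT2sinc 1 to 3. The groups did not overlap, and GPT2si 2 again held the highest value. ID3 averaged 328 ± 58.4 CPM in GPT2si and 147 ± 18.4 CPM in GPT2sinc (SD, n = 3 each), a log2 fold change of 1.15 (SE 0.14).

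ID2 (ENSG00000115738; chromosome 2, 8678845 to 8684453, plus strand) had 46.3, 48.5 and 48.8 CPM in GPT2si 1 to 3, against 22.6, 27.3 and 28.2 CPM in GPT2sinc 1 to 3. Here GPT2si 2 did not stand above the others, and the 3 GPT2si values lay close together. ID2 averaged 47.9 ± 1.39 CPM in GPT2si and 26.1 ± 3.00 CPM in GPT2sinc (SD, n = 3 each), a log2 fold change of 0.88 (SE 0.11). ID2 overlaps the antisense gene ID2-AS1, which had 84 to 181 counts per library. The libraries keep strand, but the sources used here do not say whether the counting used it.

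ID4 (ENSG00000172201; chromosome 6, 19837386 to 19840684, plus strand) differs from its relatives in tissue range and is known from neural and mammary progenitors. It had 47.9, 45.7 and 47.8 CPM in GPT2si 1 to 3, against 32.6, 38.9 and 32.4 CPM in GPT2sinc 1 to 3. The groups did not overlap, and GPT2si 2 was the lowest GPT2si library, where it was the highest for ID1 and ID3. The means were 47.1 ± 1.25 CPM in GPT2si and 34.6 ± 3.68 CPM in GPT2sinc (SD, n = 3 each). The log2 fold change of 0.45 (SE 0.10) did not pass edgeR's test across all genes (adjusted p = 0.0722). ID4 overlaps the antisense gene AL022068.1, which had 17 to 54 counts per library.

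SMAD6 (ENSG00000137834; chromosome 15, 66702228 to 66782848, plus strand), the inhibitory SMAD that acts mainly on BMP receptors, had 19.3, 24.1 and 21.2 CPM in GPT2si 1 to 3, against 15.8, 15.4 and 15.3 CPM in GPT2sinc 1 to 3. The groups did not overlap, and the GPT2sinc values were close to each other. SMAD6 averaged 21.5 ± 2.43 CPM in GPT2si and 15.5 ± 0.266 CPM in GPT2sinc (SD, n = 3 each). Its log2 fold change of 0.47 (SE 0.12) did not pass edgeR's test (adjusted p = 0.0838).

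SMAD7 (ENSG00000101665; chromosome 18, 48919853 to 48952052, minus strand), which inhibits both TGF-beta and BMP receptors, had 6.50, 5.54 and 6.61 CPM in GPT2si 1 to 3, against 7.63, 7.36 and 6.32 CPM in GPT2sinc 1 to 3. GPT2sinc 3 lay within the GPT2si values. The log2 fold change was −0.19 (SE 0.15; edgeR adjusted p = 0.502).

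SMAD9 (ENSG00000120693; chromosome 13, 36844831 to 36920765, minus strand) had 19.3, 14.1 and 21.7 CPM in GPT2si 1 to 3, against 31.2, 22.3 and 17.6 CPM in GPT2sinc 1 to 3. Its groups overlapped, with the widest spread of the 7 tested genes in relation to its level: 18.4 ± 3.90 CPM in GPT2si and 23.7 ± 6.89 CPM in GPT2sinc (SD, n = 3 each). The log2 fold change was −0.37 (SE 0.22; edgeR adjusted p = 0.377), and it ran from −0.54 without GPT2sinc 3 to −0.12 without GPT2sinc 1.

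BAMBI (ENSG00000095739; chromosome 10, 28677342 to 28682939, plus strand) had 0, 0 and 3 counts in GPT2si 1 to 3, against 0, 0 and 0 counts in GPT2sinc 1 to 3. A floor of 3 counts equals 0.0597 to 0.0770 CPM in these libraries, which covers counting error only, since PCR copies of a molecule cannot be recognised in these libraries. No fold change is given for BAMBI, and no expression was detectable above that floor.

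Levels between genes were compared as CPM per kilobase of the longest GENCODE 29 transcript. In GPT2si the order was ID3 at 262 ± 46.7, ID1 at 116 ± 14.8, ID2 at 23.4 ± 0.681, ID4 at 20.1 ± 0.534, SMAD6 at 4.14 ± 0.468, SMAD9 at 3.28 ± 0.697 and SMAD7 at 1.40 ± 0.133 CPM per kilobase. In GPT2sinc it was ID3 at 118 ± 14.7, ID1 at 52.4 ± 5.56, ID4 at 14.8 ± 1.57, ID2 at 12.8 ± 1.47, SMAD9 at 4.24 ± 1.23, SMAD6 at 2.99 ± 0.0512 and SMAD7 at 1.60 ± 0.156 CPM per kilobase (SD, n = 3 in each group). ID2 and ID4 thus stood in the opposite order in the groups: their values did not overlap in GPT2si and did in GPT2sinc. SMAD6 and SMAD9 also changed places, with overlapping values in GPT2si and a difference about the size of the SMAD9 spread in GPT2sinc. Among 16825 tested genes with a transcript length, the GPT2sinc level put ID3 at percentile 97.2, ID1 at 92.9, ID4 at 76.2, ID2 at 73.5, SMAD9 at 52.3, SMAD6 at 45.6 and SMAD7 at 34.8.

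**Figure D2:**
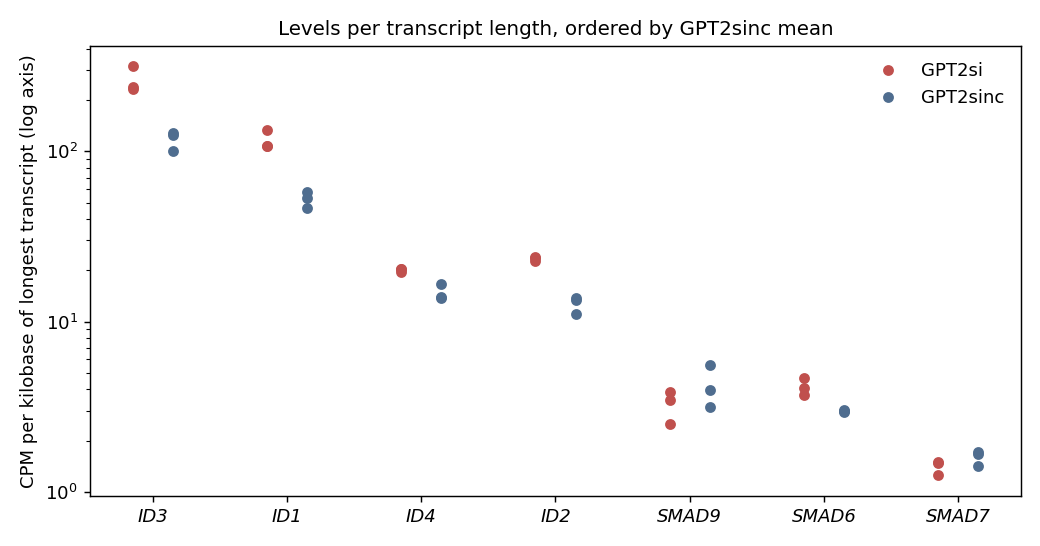
Level of the 7 tested genes in CPM per kilobase of the longest transcript, on a log axis, ordered by the GPT2sinc mean; points are libraries, with GPT2si left of GPT2sinc. ID3 and ID1 lie above the other 5 genes in both groups, and the ID2 points lie above the ID4 points in GPT2si and overlap them in GPT2sinc.

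The 4 ID transcripts together summed to 389, 493 and 384 CPM per kilobase in GPT2si 1 to 3, against 172, 215 and 206 CPM per kilobase in GPT2sinc 1 to 3. The mean sum was 422 ± 61.2 in GPT2si and 198 ± 22.4 in GPT2sinc (SD, n = 3 each), a ratio of 2.13. ID3 made up 61.9% ± 1.94 of the sum in GPT2si and 59.5% ± 1.16 in GPT2sinc, and ID1 27.6% ± 0.474 in GPT2si and 26.5% ± 0.656 in GPT2sinc. The share of ID2 was 5.62% ± 0.718 in GPT2si and 6.46% ± 0.250 in GPT2sinc. The share of ID4 was 4.84% ± 0.764 in GPT2si and 7.50% ± 0.698 in GPT2sinc.

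TCF3, TCF4 and TCF12 encode the E proteins that ID proteins bind. Their summed transcript level was 46.1, 49.1 and 48.7 CPM per kilobase in GPT2si 1 to 3, against 47.9, 45.8 and 45.6 CPM per kilobase in GPT2sinc 1 to 3, so the groups overlapped. The ID sum was 8.45, 10.04 and 7.88 times the E protein sum in GPT2si 1 to 3, against 3.60, 4.70 and 4.51 times in GPT2sinc 1 to 3. TCF3, which carried most of the E protein sum, had a log2 fold change of 0.07 (SE 0.08; edgeR adjusted p = 0.687). These are transcript levels, and protein was not measured.

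The pattern over the 6 libraries was compared between genes as the root-mean-square difference of log2 CPM centred on each gene's mean, as a description. Group means were not removed. The distances therefore partly repeat how alike the fold changes are, and the set was chosen on that comparison. ID1 and ID3 differed by 0.05, the closest pair of the 7 genes, and ID2 differed from ID1 by 0.17 and from ID3 by 0.19. ID4 and SMAD6 formed the next closest pair, at 0.15, and stood 0.38 and 0.36 from ID1. SMAD7 and SMAD9 differed by 0.21, and stood 0.71 and 0.86 from ID1. In GPT2si 2, ID1, ID3 and SMAD6 had their highest values of the 6 libraries and SMAD7 and SMAD9 their lowest.

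**Figure D3:**
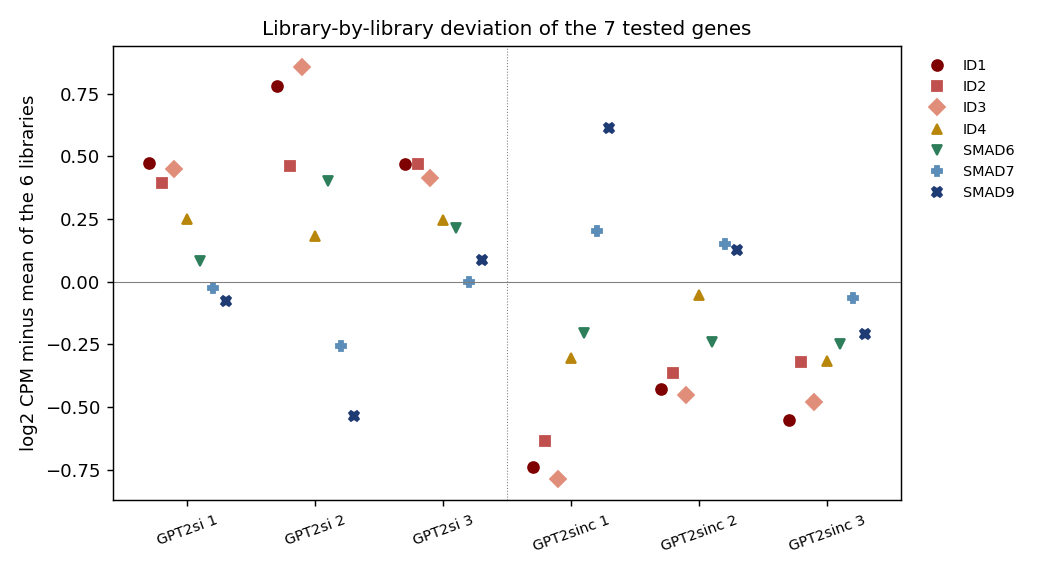
Log2 CPM minus the mean over the 6 libraries for the 7 tested genes, with the GPT2si libraries left of the GPT2sinc libraries; each marker is 1 gene in 1 library. ID1, ID2 and ID3 lie above 0 in every GPT2si library and below 0 in every GPT2sinc library, and SMAD9 has its lowest value in GPT2si 2 and its highest in GPT2sinc 1.

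Among 10159 other protein-coding genes with a mean of at least 5 CPM, the 5 whose centred values were nearest to the mean of ID1, ID2 and ID3 were RRS1 (root-mean-square difference 0.07 log2 units), SERPINB8 (0.08), EGR1 (0.12), MAT2A (0.12) and TAGLN (0.13), over 6 libraries. RRS1, a ribosome assembly factor, had 28.0, 32.5 and 26.8 CPM in GPT2si 1 to 3, against 13.0, 16.0 and 16.4 CPM in GPT2sinc 1 to 3. SERPINB8, a protease inhibitor, had 10.9, 11.2 and 10.3 CPM in GPT2si 1 to 3, against 4.77, 5.53 and 5.75 CPM in GPT2sinc 1 to 3. EGR1, an immediate early transcription factor, had 81.8, 84.3 and 71.7 CPM in GPT2si 1 to 3, against 39.2, 42.2 and 45.8 CPM in GPT2sinc 1 to 3. Likeness to genes that separate the groups selects genes that separate them too, so no test is given for these 5.

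The pathway around the ID genes was covered by 11 lists with 156 genes, of which 107 passed the low-count filter. By edgeR's adjusted p, 2 of the 107 were higher in GPT2si, AMH and CCN2, and 0 were lower. Without adjustment, 12 had a p under 0.05 and a higher level and 10 a lower one, against 10.3% and 9.27% of all tested genes, so the counts of the lists were near the background. DESeq2 called 5 of the 107 higher and 2 lower, where it called 3.28% of all 17006 tested genes higher and 2.87% lower. DESeq2 gives no adjusted p to genes that its own filter sets aside, and such genes counted as not called. Limma-voom called 2 higher and 0 lower, against 0.388% and 0.635% of all. With offsets for GC content and transcript length in edgeR, 12 were higher and 2 lower, against 7.94% and 4.44% of all. On leaving out GPT2si 1 or any single GPT2sinc library, 0 were higher and 0 lower by edgeR. The median log2 fold change of the 107 was −0.03, against −0.01 over all tested genes, and with the GC and length offsets it was 0.06, against 0.04 over all.

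No BMP ligand passed edgeR's test among 6 tested, and their median log2 fold change was −0.30. The median was −0.14 without GPT2si 2 and −0.42 without GPT2sinc 2. It rests partly on genes of low level. BMP4 averaged 0.407 CPM in GPT2si and 0.367 CPM in GPT2sinc. GDF5 averaged 0.405 CPM in GPT2si and 0.625 CPM in GPT2sinc, and GDF9 0.364 CPM in GPT2si and 0.474 CPM in GPT2sinc. With at least 1 CPM required in 3 libraries, 3 ligands remained, with a median of −0.24. Without adjustment, 1 of the 6 had a p under 0.05 upward and 1 downward, and the background shares given above apply to this and the other lists. The most abundant, BMP7, had 55.4, 61.2 and 51.7 CPM in GPT2si 1 to 3, against 45.9, 47.1 and 48.7 CPM in GPT2sinc 1 to 3 (log2 fold change 0.25, SE 0.10; edgeR adjusted p = 0.204, or 0.0452 with the GC and length offsets). BMP8B followed with 7.02, 6.03 and 7.20 CPM in GPT2si 1 to 3, against 8.72, 7.60 and 7.49 CPM in GPT2sinc 1 to 3. Of 9 tested ligands of the TGF-beta, activin and nodal branches, 1 was higher and 0 lower. It was AMH, anti-Müllerian hormone, which signals through the BMP type I receptors and SMADs. AMH had 4.14, 3.64 and 3.42 CPM in GPT2si 1 to 3, against 1.81, 1.40 and 0.827 CPM in GPT2sinc 1 to 3. Every GPT2si value lay above every GPT2sinc value, and the log2 fold change was 1.47 (SE 0.26; edgeR adjusted p = 0.0368). The AMH call was lost without the low-count filter and on leaving out any library other than GPT2si 2 (adjusted p up to 0.169). Its type II receptor AMHR2, looked up after the AMH value was seen, had 0.477, 0.257 and 0.154 CPM in GPT2si 1 to 3, against 0.436, 0.473 and 0.483 CPM in GPT2sinc 1 to 3.

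None of 15 tested receptors and co-receptors passed edgeR's test, and none had an unadjusted p under 0.05. NEO1, a receptor for the repulsive guidance molecules, was the most abundant, at 379 ± 9.73 CPM in GPT2si and 351 ± 9.29 CPM in GPT2sinc (SD, n = 3 each). BMPR2, the type II BMP receptor, had 43.4, 30.2 and 52.3 CPM in GPT2si 1 to 3, against 59.7, 43.2 and 41.3 CPM in GPT2sinc 1 to 3, and its groups overlapped. None of 11 tested secreted antagonists and binding proteins passed, and without adjustment 1 had a p under 0.05 upward and 1 downward. Their median log2 fold change was −0.27, against −0.01 over all tested genes, and 3 of 11 values were positive. Over the 14 alternatives the median ran from −0.32 to −0.09. FSTL1 had 130 ± 19.3 CPM in GPT2si and 157 ± 4.03 CPM in GPT2sinc, and NBL1 40.3 ± 6.21 CPM in GPT2si and 32.4 ± 3.60 CPM in GPT2sinc (SD, n = 3 each). When edgeR was given offsets for GC and length, NBL1 passed (adjusted p = 0.0437).

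None of the 5 receptor-activated and common SMADs passed edgeR's test, and none had an unadjusted p under 0.05. Their median log2 fold change was −0.03, and 2 of 5 values were positive. With GC and length offsets in edgeR, 1 of the 5 was called higher, against 7.94% of all tested genes. All 5 values were positive in that fit, with a median of 0.15, against 0.04 over all tested genes. SMAD4, the common partner, had 41.8, 34.1 and 43.2 CPM in GPT2si 1 to 3, against 43.5, 39.1 and 38.6 CPM in GPT2sinc 1 to 3, and SMAD2 had 39.7 ± 6.15 CPM in GPT2si and 42.9 ± 2.49 CPM in GPT2sinc (SD, n = 3 each). The groups overlapped for SMAD2 and SMAD4. SMAD1 and SMAD5 were looked up after these counts were seen, and their groups overlapped too. Their log2 fold changes were 0.17 (SE 0.11; edgeR adjusted p = 0.430) and −0.04 (SE 0.20; edgeR adjusted p = 0.934). Of 19 tested SMAD turnover factors and corepressors, 0 passed, and 2 were lower at an unadjusted p under 0.05, a share close to the 9.27% of all tested genes. The phosphatases CTDSP2 and CTDSP1, the most abundant, had log2 fold changes of 0.18 (SE 0.08) and 0.16 (SE 0.10).

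The 9 tested other BMP targets had a median log2 fold change of 0.33, and 7 of 9 values were positive, against 8161 of 17006 over all tested genes. By edgeR's adjusted p, 0 of the 9 passed, and 5 had an unadjusted p under 0.05, all of them higher in GPT2si. Over all tested genes, 1756 were higher and 1576 lower at that level. DESeq2 called 2 of the 9 higher, limma-voom 0, and edgeR with GC and length offsets 4. TBX2, a T-box factor and the most abundant of the list, had 584, 705 and 592 CPM in GPT2si 1 to 3, against 471, 509 and 516 CPM in GPT2sinc 1 to 3 (log2 fold change 0.33, SE 0.10; edgeR adjusted p = 0.115, or 0.0136 with the GC and length offsets). Its groups did not overlap, and GPT2si 2 was the highest library, as for ID1 and ID3. DLX2, a homeobox factor, had 222, 284 and 226 CPM in GPT2si 1 to 3, against 214, 213 and 227 CPM in GPT2sinc 1 to 3, and its groups overlapped. The 2 negative values of the list were those of MSX1 (log2 fold change −0.0016, SE 0.09; edgeR adjusted p = 0.995) and DLX5 (−0.05, SE 0.10; edgeR adjusted p = 0.803). The groups overlapped for MSX1 and DLX5. These genes, GATA2 and HES1 were chosen after their values were seen. GATA2 had 46.9, 52.2 and 45.0 CPM in GPT2si 1 to 3, against 33.9, 37.0 and 37.2 CPM in GPT2sinc 1 to 3 (edgeR adjusted p = 0.0766). HES1 had 6.84, 9.54 and 7.00 CPM in GPT2si 1 to 3, against 4.99, 5.21 and 5.15 CPM in GPT2sinc 1 to 3 (edgeR adjusted p = 0.105).

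Of 12 tested targets of SMAD2 and SMAD3, which carry TGF-beta and activin signals, 1 was higher and 0 lower, and the median log2 fold change was 0.03, with a range of −0.05 to 0.08 over the 14 alternatives. With GC and length offsets 3 of the 12 were higher. CCN2, a secreted matrix protein also known as CTGF, had 6.88, 6.26 and 5.86 CPM in GPT2si 1 to 3, against 2.07, 2.71 and 2.48 CPM in GPT2sinc 1 to 3. The groups did not overlap, and its log2 fold change was 1.39 (SE 0.17; edgeR adjusted p = 0.0119). The call was lost without GPT2si 1 and without any single GPT2sinc library (edgeR adjusted p up to 0.0850).

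**Figure D4:**
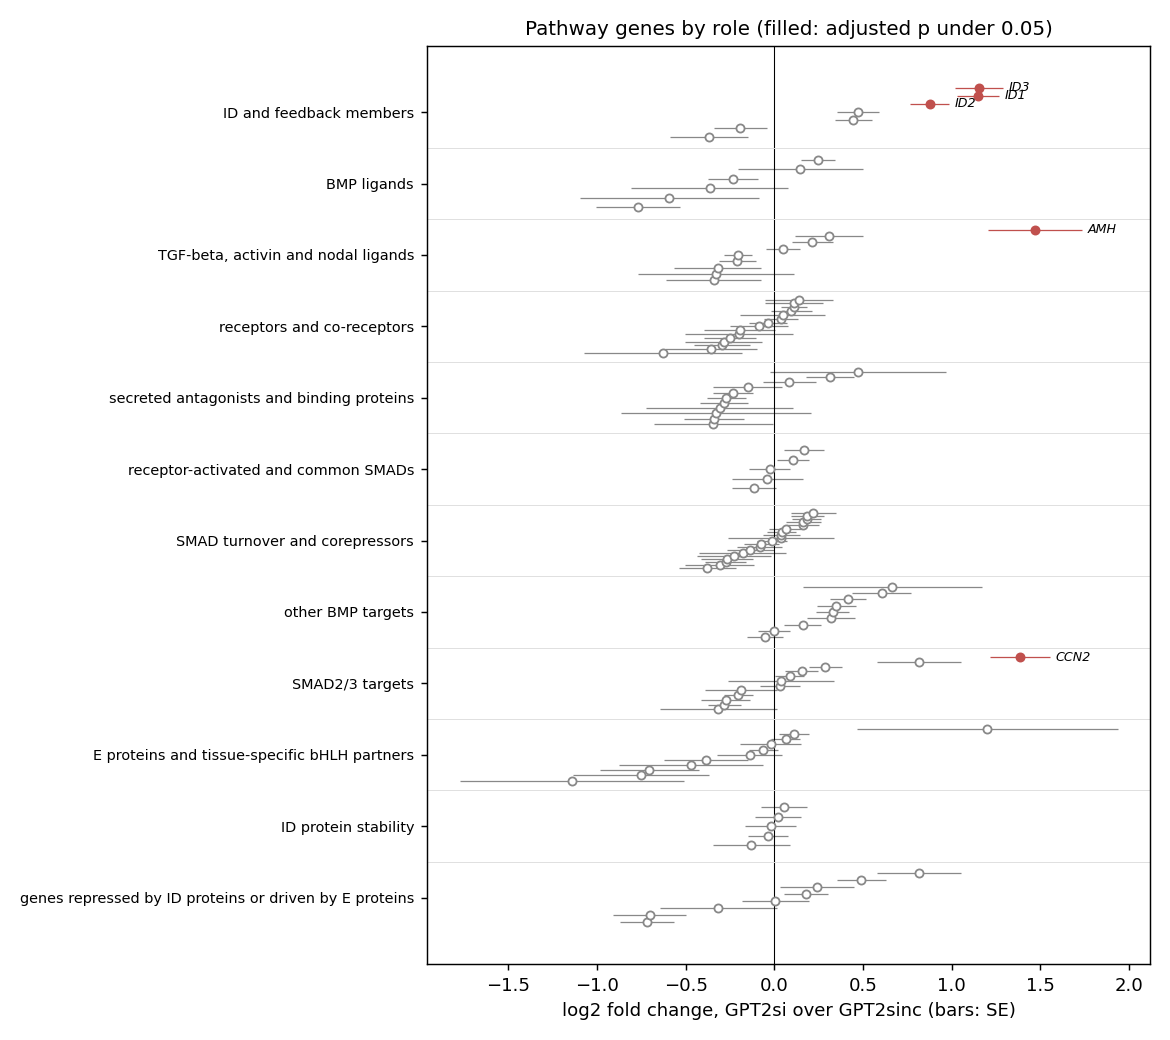
Log2 fold change, GPT2si over GPT2sinc, of the 7 tested ID and feedback genes and of the tested genes of the 11 pathway lists, 1 row of points per list; bars are SE, and filled points have an edgeR adjusted p under 0.05. The filled points are ID1, ID2, ID3, AMH and CCN2, and in the other 9 lists no point is filled.

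Downstream of the ID proteins, 0 of 11 tested E proteins and tissue-specific partners passed edgeR's test, and without adjustment 0 had a p under 0.05 upward and 1 downward. HAND2, a partner of E proteins, had 132 ± 10.1 CPM in GPT2si and 122 ± 1.91 CPM in GPT2sinc (SD, n = 3 each). None of 5 factors that control ID protein stability passed, and none had an unadjusted p under 0.05. CDC20 and FZR1, activators of the ligase that degrades ID proteins, had log2 fold changes of −0.02 (SE 0.14) and −0.03 (SE 0.11). Of 8 tested genes that ID proteins repress or E proteins drive, 0 passed, and without adjustment 2 had a p under 0.05 upward and 2 downward. The lower 2 were CDKN1C (log2 fold change −0.72, SE 0.15; edgeR adjusted p = 0.0553) and CXCR4 (−0.70, SE 0.21; edgeR adjusted p = 0.117). The higher 2 were CDKN1A and THBS1 (0.82, SE 0.24; edgeR adjusted p = 0.115). CDKN1C, CXCR4 and THBS1 were looked up after these counts were seen. DESeq2 called 1 of the 8 higher and 2 lower, and edgeR with GC and length offsets 2 higher and 2 lower. CDKN1A, which encodes the cell cycle inhibitor p21 and is repressed by ID proteins, had 414, 557 and 411 CPM in GPT2si 1 to 3, against 282, 338 and 365 CPM in GPT2sinc 1 to 3. Its groups did not overlap, and the log2 fold change was 0.49 (SE 0.14; edgeR adjusted p = 0.110). DESeq2 gave CDKN1A a log2 fold change of 0.50 and an adjusted p of 0.0238. The edgeR fit that offsets GC and length gave 0.46 and 0.0149, so CDKN1A passed in both. CDKN2A, the gene of the inhibitor p16, had 21.4, 27.0 and 21.6 CPM in GPT2si 1 to 3, against 19.5, 21.2 and 21.1 CPM in GPT2sinc 1 to 3.

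ID1, ID2 and ID3 were past the threshold under all 8 alternatives that kept the 6 libraries. They were also past it without GPT2si 2 and without GPT2si 3, and all 3 lost it without GPT2si 1 or without any single GPT2sinc library, where adjusted p reached 0.0813 for ID1, 0.0940 for ID2 and 0.0850 for ID3. Over all tested genes, these 4 omissions left 0 to 3 genes called higher. Their log2 fold changes over all 14 alternatives were 1.03 to 1.23, 0.79 to 0.94 and 0.99 to 1.24. Without GPT2si 2, the library farthest from the others of its group, ID4 was called beside ID1, ID2 and ID3. How many of all tested genes were called also changed with the library left out. Nothing about the members is therefore read from the added call of ID4. ID4 ran from 0.40 to 0.54 and was called in 3 of 14 alternatives, and SMAD6 ran from 0.37 to 0.54 and was called in 2, with DESeq2 and with offsets for GC content and length. SMAD7 and SMAD9 were called in none of the 14.

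**Figure D5:**
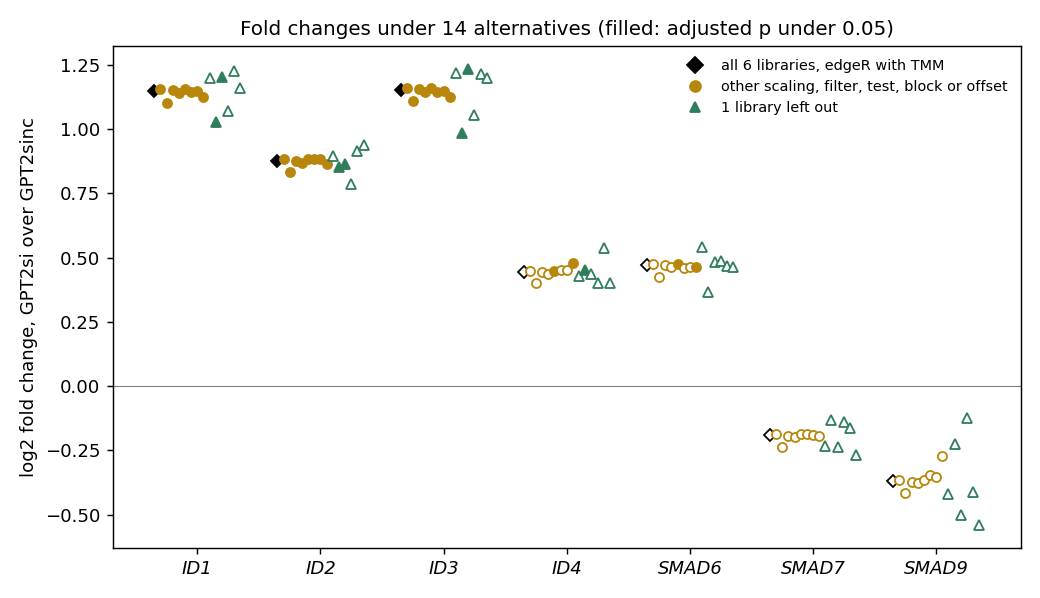
Log2 fold change, GPT2si over GPT2sinc, of the 7 tested genes in the edgeR fit and its 14 alternatives; filled points have an adjusted p under 0.05. ID1, ID2 and ID3 are filled in 10 of 14 alternatives, ID4 in 3 and SMAD6 in 2, and the points of each gene stay on one side of 0.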

How the data were processed

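RNA of A2780 cells was measured in 6 libraries, and titles gave the groups. Per the labels' protocols, poly(A) RNA was copied with dUTP in the second strand. The authors deposited raw counts, whole numbers per Ensembl gene. Tools named per the submitters' processing notes, without role or version, are CASAVA and StringTie. The sources used here name no aligner, counting program, strand setting, build or annotation.

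All 60564 rows have an Ensembl identifier, 60295 a symbol, and 58457 occur in GENCODE 29. Counts were tested with edgeR 4.0.16 (quasi-likelihood F test, TMM, filterByExpr, R 4.3.3) with the group as the only term, adjusted by Benjamini-Hochberg over 17006 genes at 0.05; SE came from F. CPM use TMM-scaled totals, and centred values a prior count of 2. Alternatives were size factors of DESeq2, upper-quartile factors, no filter, at least 1 CPM in 3 libraries, DESeq2 1.42.0, limma-voom (limma 3.58.1), a replicate block, loess offsets (span 0.5) for GC and length, and each library left out. The fit was tested on simulated data. The smallest chi-square per degree of freedom between libraries, 7.71, gave no duplicates. Named genes are the 8 members, GPT2, every called gene of each list or otherwise its 2 most abundant, and the 5 nearest profiles. Members, lists and tests were chosen with earlier results of these data known.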

Additional observations from a re-analysis of the deposited data

How the results depend on the processing

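The edgeR fit called 98 genes higher and 143 lower, among them 3 members, all higher. With DESeq2 size factors in edgeR 61 genes were higher, without a filter 17 were higher and 27 lower, with DESeq2 558 and 488, and with GC and length offsets 1350 and 755. With DESeq2 and with these offsets 5 members were higher. Limma-voom called 66 higher. With the replicate block 252 genes were higher and 306 lower, and 3 members were higher. The main fit did not take the replicate numbers as pairs. After removal of group means, same-numbered libraries correlated at 0.085, 0.114 and −0.187. Differently numbered libraries were not compared, so these values do not settle whether the numbers are pairs. Leaving out 1 library gave 0 to 377 genes higher, 1 to 459 lower, and 0 to 4 members higher; the cause was not tested. No member was lower in any alternative.

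Of 462 recomputed log2 fold changes of named genes, 396 kept their direction and side of the threshold, 42 lost the call, 11 gained one and 13 changed sign. With GC and length offsets the sign changed for BMPR2 (0.0260), SMAD2 (0.151) and SMAD4 (0.131). On leaving out 1 library, values ran across 0 for SMAD4 (−0.0893 to 0.0570), CDC20 (−0.205 to 0.0678), FZR1 (−0.180 to 0.0263) and TCF3 (−0.00818 to 0.0987). Of the list counts, 283 of 308 stayed within 1.5 times, but most were 0 throughout and could show little; with GC and length offsets other BMP targets had 4 higher and SMAD2/3 targets 3. With the replicate block CDKN1A passed (adjusted p = 0.0335), and the genes repressed by ID proteins or driven by E proteins had 1 higher and 1 lower. For SMAD6 the adjusted p was 0.0115 by DESeq2 and 0.00941 by edgeR with the offsets.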
